A study of Homo sapiens with 16 samples.

Results

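The genes described here are 10 genes of fatty acid synthesis, elongation, desaturation and activation: ACLY, ACACA, FASN, ELOVL6, SCD, FADS1, FADS2, ACSL1, ACSL3 and ACSL4. They were taken by gene symbol, without the use of any measured value, from the 60623 genes listed for each library. The data are mRNA levels in 16 libraries of Caco-2, a line from a colon tumour, and HepG2, a line from a liver tumour, both grown on a microfluidic chip that models the gut-liver axis in fatty liver disease. The lines were grown separately (mono-culture) or joined on one chip (co-culture), and each culture received medium without added fatty acids (control) or free fatty acids (FFA) at 1 mM, palmitic and oleic acid in a ratio of 1 to 2. The 8 groups held 2 replicates each. The labels give 1 day of treatment, the shorter of the durations the study sequenced, and all cells were starved of serum before treatment. The study's methods describe its mRNA-seq as done in independent experiments, and the labels do not say which libraries belong to which experiment.

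Cells make fatty acids from cytosolic acetyl-CoA, which ACLY supplies by splitting citrate. ACACA carboxylates it to malonyl-CoA and FASN joins these units into palmitate, which ELOVL6 lengthens and SCD desaturates to the main unsaturated fatty acids of triglycerides. FADS1 and FADS2 add further double bonds to polyunsaturated fatty acids that come from the diet. The long-chain acyl-CoA synthetases ACSL1, ACSL3 and ACSL4 attach coenzyme A to free fatty acids so that they can enter lipids or be oxidised. In liver the synthesis genes are known targets of the sterol regulatory element binding protein SREBP-1c, and polyunsaturated fatty acids are known to lower their transcription.

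Levels are in CPM, which divides the reads of a gene by the total of its library and so removes depth from the scale but not from the error. The libraries were shallow and uneven. Caco-2 libraries held 353871 to 974654 reads and HepG2 libraries 49634 to 1657431, with HepG2 co-culture FFA lowest at 147096 and 49634 reads. In these last 2 libraries 3 reads, taken as the floor of detection, stood for 20.4 and 60.4 CPM. Of the 15 hepatocyte markers, 11 (ALB, AHSG, FGA, FGB, FGG, APOH, AMBP, SERPINC1, ITIH2, CPB2 and ASGR1) were higher in every HepG2 library than in any Caco-2 library, 1 (VTN) was higher in every Caco-2 library, and the sum over all 15 was 23137 to 46077 CPM in HepG2 and 4127 to 6203 CPM in Caco-2. Of the 15 intestinal markers, 6 (CDH17, TSPAN8, PHGR1, CEACAM5, CEACAM6 and MUC13) separated the lines the other way and 2 (FABP2 and PRAP1) were higher in HepG2. The intestinal sum was 208 to 288 CPM in Caco-2 and 77.7 to 282 CPM in HepG2, with 7 of these markers (CDX1, CDX2, CDH17, GPA33, CEACAM6, SI and MUC13) at 0 in all 8 HepG2 libraries. The labels' extraction text names differentiated myoblasts, but 6 of 12 myoblast markers (MYOD1, MYF5, MYOG, MYH8, TNNT3 and PAX7) were at 0 in all 16 libraries. The sum of the 12 was 39.9 to 86.6 CPM in Caco-2 and 13.6 to 21.8 CPM in HepG2, with TNNT1 higher in every Caco-2 library.

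The 10 genes were thinly covered. Over the 8 libraries of a line, ACSL3 had 261 reads in Caco-2 and 305 in HepG2, SCD had 195 and 93, ACLY had 108 and 97, and FADS1 had 101 and 72. ACSL4 followed with 71 and 165 reads, ACACA with 48 and 42, ELOVL6 with 19 and 21, and FASN with 14 and 30. FADS2 (4 and 3 reads) and ACSL1 (5 and 1) never reached the floor of 3 reads in any library, so no expression of either was established and no fold is given for them. Per kilobase of the canonical transcript, the mean level in Caco-2 was 9.76 CPM for ACSL3, 8.14 for SCD, 5.13 for ACLY, 4.99 for FADS1 and 3.03 for ACSL4. In HepG2 the order was ACSL3 (14.2 CPM per kilobase), ACSL4 (7.86), ACLY (4.96), FADS1 (4.92) and SCD (3.92). The remaining genes lay under 2 CPM per kilobase in both lines, FASN among them with 0.362 in Caco-2 and 1.60 in HepG2.

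**Figure D1:**
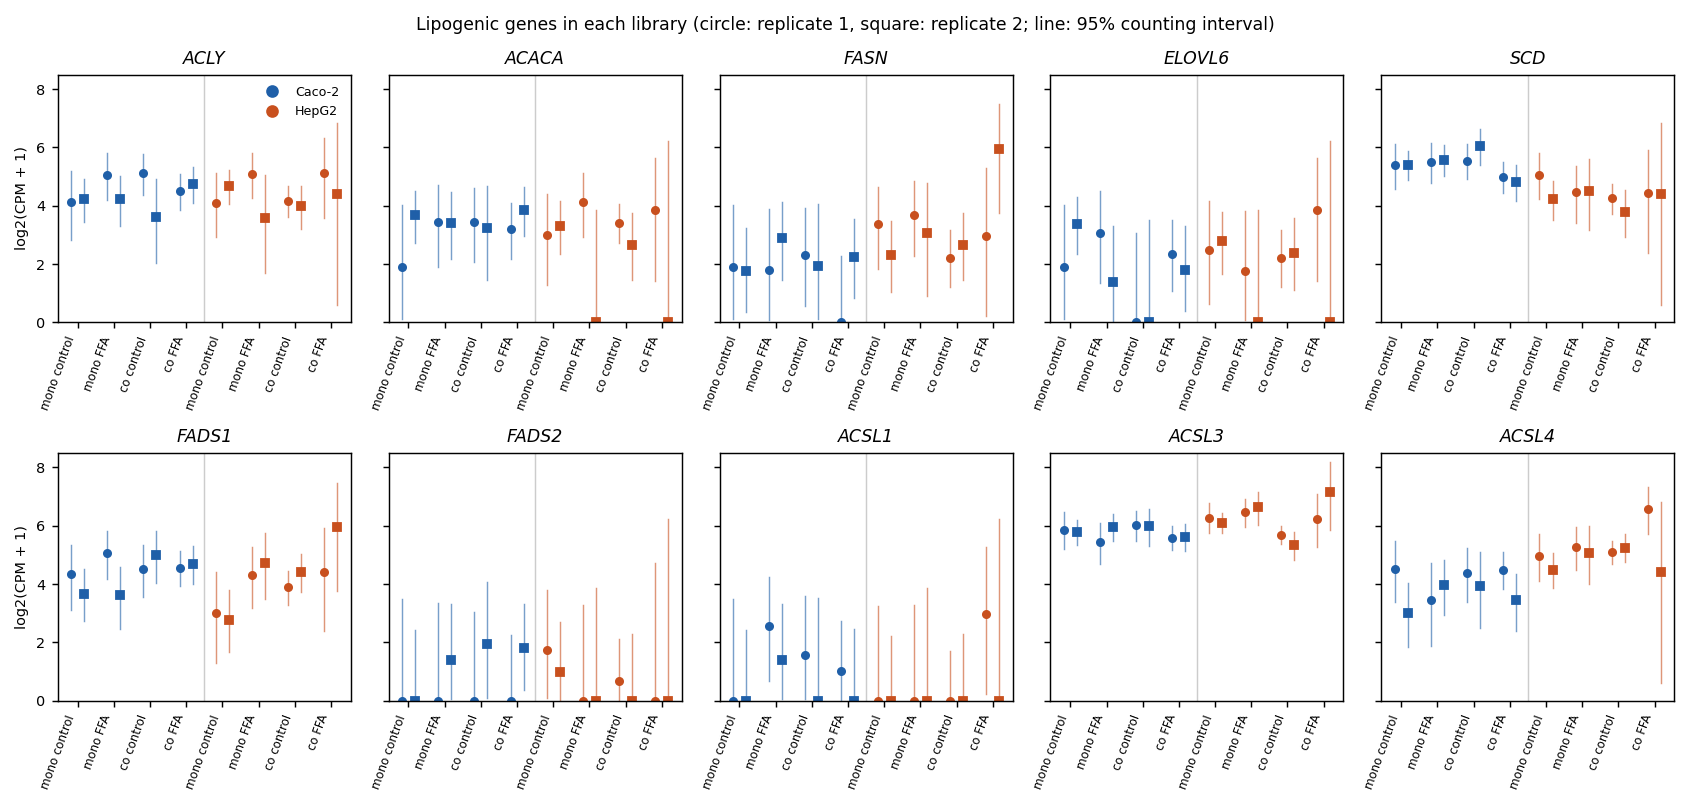
Level of each of the 10 genes in each of the 16 libraries, as log2 of CPM plus 1, grouped by cell line (blue, Caco-2; orange, HepG2), culture (mono or co) and treatment (control or FFA). Circles are replicate 1, squares replicate 2, and vertical lines the exact 95% Poisson interval of the reads, which covers counting error only. SCD lies lower in HepG2 than in Caco-2 in each condition and ACSL4 lies higher, while FADS2 and ACSL1 rest on at most 2 reads in any library, and the intervals are widest in HepG2 co-culture FFA.

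The clearest difference among the 10 genes was between the cell lines. SCD was lower in HepG2 than in Caco-2 in all 4 conditions, whereas ACSL4 was higher in all 4. In the comparison averaged over the 4 conditions, 4 of 10 genes passed the threshold of an adjusted p under 0.05 (SCD lower, ACSL4, FASN and ACSL3 higher in HepG2). The lines differed widely, and 30.3% of the 17544 genes tested passed in the same comparison, so the share among the 10 genes was close to that of all genes. The same 4 were those with an unadjusted p under 0.05, beside 40.4% of all genes. For none of the 10 did the 8 libraries of one line lie wholly apart from the 8 of the other, as was the case for 10.3% of all genes. The median log2 difference was -0.14 over the 10 genes and -0.16 over all genes tested. In these bulk samples fewer cells of a type and less RNA per cell cannot be told apart.

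SCD, the desaturase that makes oleate and palmitoleate, lies on chromosome 10 (chr10:100347233-100364826, plus strand, GRCh38, 6 exons in the canonical transcript of GENCODE 44). In Caco-2 its replicates stood at 41.0 and 41.1 CPM in mono-culture control, 44.5 and 46.6 in mono-culture FFA, 45.6 and 65.0 in co-culture control, and 30.8 and 27.1 in co-culture FFA. In HepG2 the values in the same order were 32.5 and 17.6, 21.2 and 21.8, 18.1 and 12.7, and 20.4 and 20.1 CPM. The highest HepG2 value overlapped the Caco-2 range, and the other 7 HepG2 libraries were all below the lowest Caco-2 library. The mean over conditions was 42.7 CPM ± 11.4 (SD, n = 8) in Caco-2 and 20.6 ± 5.63 (SD, n = 8) in HepG2, 2.08-fold lower in HepG2. The log2 difference was -1.02 (SE 0.19, 95% interval -1.42 to -0.61, limma adjusted p = 0.000872). From the pooled reads the ratio of Caco-2 to HepG2 was 2.12 (exact 95% counting interval 1.65 to 2.75). No read of any library was assigned to SCDP1, the processed pseudogene of SCD.

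ACSL4, which favours arachidonic acid among the long-chain synthetases, lies on chromosome X (chrX:109624244-109733403, minus strand, 16 exons). Its Caco-2 replicates were 21.9 and 7.05 CPM in mono-culture control, 9.90 and 14.5 in mono-culture FFA, 19.8 and 14.1 in co-culture control, and 21.5 and 9.86 in co-culture FFA. Its HepG2 replicates were 30.2 and 21.5, 37.7 and 32.7, 33.2 and 37.0, and 95.2 and 20.1 CPM. All 8 HepG2 libraries were above the Caco-2 median of 14.3 CPM and 6 of them above the highest Caco-2 library. The log2 difference was 1.25 (SE 0.33, 95% interval 0.53 to 1.97, limma adjusted p = 0.0112), and the mean was 2.59-fold higher in HepG2. Pooled reads gave a ratio of HepG2 to Caco-2 of 2.29 (1.73 to 3.07). Without replicate 2 of Caco-2 co-culture FFA the call was lost (adjusted p = 0.0537, log2 difference 1.12), and it was also lost after thinning every library to 49634 reads (adjusted p = 0.103).

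The calls for FASN and ACSL3 rested on fewer data. FASN, the enzyme that assembles palmitate (chr17:82078338-82098294, minus strand, 43 exons), had 0 to 4 reads per library in Caco-2 and 1 to 6 in HepG2. Its Caco-2 replicates were 2.74 and 2.35 CPM in mono-culture control, 2.48 and 6.43 in mono-culture FFA, 3.96 and 2.82 in co-culture control, and 0 and 3.70 in co-culture FFA. Its HepG2 replicates were 9.29 and 3.91, 11.8 and 7.28, 3.62 and 5.28, and 6.80 and 60.4 CPM. All 8 HepG2 libraries were above the Caco-2 median of 2.78 CPM, and 5 were above the highest Caco-2 value. The log2 difference was 1.42 (SE 0.49, limma adjusted p = 0.0422). The highest value, 60.4 CPM, was 3 reads in the shallowest library, and without both HepG2 co-culture FFA libraries the difference was 0.78 (adjusted p = 0.229). Pooled reads gave a ratio of 2.11 (1.09 to 4.32). When 1 library was left out at a time, FASN passed in 2 of 16 fits, those without Caco-2 co-culture FFA replicate 2 and without HepG2 co-culture FFA replicate 1.

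ACSL3, found on the endoplasmic reticulum and on nascent lipid droplets (chr2:222860942-222944639, plus strand, 17 exons), was 57.5 and 54.0 CPM in Caco-2 mono-culture control, 42.0 and 61.1 in mono-culture FFA, 63.4 and 62.2 in co-culture control, and 47.2 and 48.0 in co-culture FFA. In HepG2 it was 76.6 and 67.4, 87.2 and 98.2, 50.7 and 39.1, and 74.8 and 141 CPM. The lowest HepG2 values, 50.7 and 39.1 CPM, were those of co-culture control, whose mean of 44.9 CPM lay below that of Caco-2 co-culture control at 62.8 CPM. In the other 3 conditions the HepG2 mean was higher. The log2 difference was 0.46 (SE 0.16, limma adjusted p = 0.0442), and it fell to 0.24 (adjusted p = 0.222) without both HepG2 co-culture FFA libraries. It passed in 4 of the 16 fits that left out 1 library, namely Caco-2 mono-culture FFA replicate 2, HepG2 co-culture control replicate 2 or either HepG2 co-culture FFA library. The pooled ratio of 1.15 (0.974 to 1.37) did not separate the lines beyond counting error.

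The other 6 genes did not pass. ACLY (log2 difference -0.06, 95% interval -0.70 to 0.58) and FADS1 (-0.25, -0.87 to 0.38) both had intervals within 2-fold of no difference. Pooled reads of FADS1 gave a ratio of HepG2 to Caco-2 of 0.703 (0.513 to 0.961), an interval that covers counting error only. For FADS1, 6 HepG2 libraries were below the Caco-2 median and 2 above it. ACLY means were 22.0 CPM ± 7.91 in Caco-2 and 21.3 ± 8.48 in HepG2 (SD, n = 8 each). For ACACA the difference was -0.73 (-2.10 to 0.64) and for ELOVL6 0.20 (-1.02 to 1.42), intervals that reach past a 2-fold difference. FADS2 and ACSL1 were under the floor in every library.

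**Figure D2:**
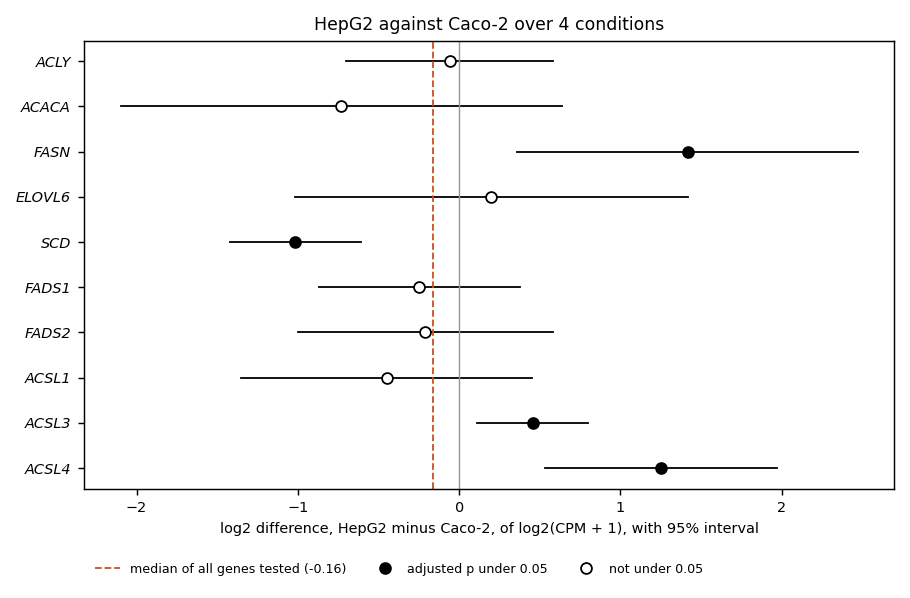
Log2 difference between HepG2 and Caco-2 for each of the 10 genes, averaged over the 4 conditions, with the 95% interval of the limma fit. Filled points have an adjusted p under 0.05, and the dashed line marks the median of all genes tested, -0.16. The points of FADS2 and ACSL1 rest on at most 5 reads in a line and are not read as differences. SCD lies to the left at -1.02, and ACSL3, ACSL4 and FASN lie to the right at 0.46, 1.25 and 1.42.

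The lines were also compared condition by condition. In mono-culture control alone 0 of 10 genes passed in limma, beside 10.6% of all genes, and 0 had an unadjusted p under 0.05, beside 22%. There SCD differed by -0.75 on the log2 scale (95% interval -1.57 to 0.06, adjusted p = 0.269). Among the other tools, DESeq2 passed 0, while edgeR and limma-voom passed SCD alone (adjusted p = 0.0453 and 0.0298). In co-culture control alone SCD passed with a log2 difference of -1.78 (adjusted p = 0.00804). In mono-culture FFA alone it was -1.05 (adjusted p = 0.0956) and in co-culture FFA alone -0.49 (adjusted p = 0.414), so the sign was the same in each condition. ACSL4 was higher in HepG2 by 0.96 (mono-culture control) to 1.53 (co-culture FFA) on the log2 scale and did not pass in any 1 condition alone.

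The promoter windows of SCD, ACSL3 and ACSL4, genes whose levels differed between the lines in the averaged comparison, are shown from RefSeq on GRCh38.p14. FASN, the other such gene, had no entry in the promoter table, which held 17 windows for 9 of the 10 genes. Only the part before the most upstream annotated start of each gene is printed, 5′ to 3′ on the gene's strand. Capitals mark the CCAAT box (CCAAT, or ATTGG on the other strand), the site of the factor NF-Y, and the GC box (GGGCGG or CCGCCC), the site of Sp1 and its relatives.

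SCD (chr10:100346983-100347232, plus strand): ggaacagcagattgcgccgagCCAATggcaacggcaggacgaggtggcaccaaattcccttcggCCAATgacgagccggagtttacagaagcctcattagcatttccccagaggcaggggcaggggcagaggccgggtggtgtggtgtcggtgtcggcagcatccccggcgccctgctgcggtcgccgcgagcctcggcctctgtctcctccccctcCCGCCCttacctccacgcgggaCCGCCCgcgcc

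ACSL3 (chr2:222860786-222860941, plus strand): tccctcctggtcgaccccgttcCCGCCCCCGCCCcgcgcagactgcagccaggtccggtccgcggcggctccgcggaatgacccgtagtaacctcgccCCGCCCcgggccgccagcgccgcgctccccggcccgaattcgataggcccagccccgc

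ACSL4 (chrX:109733404-109733507, minus strand): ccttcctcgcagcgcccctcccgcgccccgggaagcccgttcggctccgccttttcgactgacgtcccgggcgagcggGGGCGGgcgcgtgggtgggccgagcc

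The SCD window held 2 CCAAT boxes, starting 229 and 186 bases before the start, and 2 GC boxes. The full 300-base window of ACSL3 held 1 CCAAT box and 3 GC boxes, and that of ACSL4 held 3 GC boxes and no CCAAT box. Among the 35116 promoter windows of that length in the table, 34.6% held a CCAAT box and 45% a GC box. The letters TCACNCCAC, a form of the sterol regulatory element, were in 1.13% of all windows and in a window of 1 of the 9 genes, ACSL1. The E-box CACGTG, in 7.26% of all windows, was in none of the 17 windows of the 9 genes. These matches describe letters in a window and were not set against binding.

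Among the acyl-CoA synthetases, the share of ACSL4 in the reads of ACSL3 and ACSL4 together describes their balance within a library, where depth cancels. In Caco-2 it ran from 11.5% through a median of 19.1% to 31.3%, and in HepG2 from 12.5% through 29.2% to 56%. The HepG2 libraries with the highest shares were co-culture FFA replicate 1 (56% of 25 reads, Clopper-Pearson interval 34.9% to 75.6%) and co-culture control replicate 2 (48.6% of 72 reads, 36.7% to 60.7%). Replicate 2 of co-culture FFA had 1 of 8 reads from ACSL4, and the ranges of the lines overlapped. The share of SCD in the reads of SCD and ACSL3 together ran from 36.1% to 51.4% in Caco-2 (median 42.5%) and from 12.5% to 29.8% in HepG2 (median 21.1%), without overlap, both genes having been seen to differ between the lines before this share was formed. These shares and floors cover counting error only, since PCR-amplified reads are not independent molecules.

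The next question was whether free fatty acids changed these genes within a line. In Caco-2, 0 of 10 genes passed in limma for the FFA effect in mono-culture, in co-culture or averaged over culture, where 0.00647%, 0% and 0% of the 15454 genes tested passed. At an unadjusted p under 0.05 there was 1 gene in mono-culture (ACSL1), 1 in co-culture (SCD) and 0 for the average, beside 5.8%, 4.88% and 4.85% of all genes. ACSL1 had entered the fit only through mono-culture FFA, the group where it was highest, so its place in that count is no result. DESeq2, edgeR and limma-voom also passed 0, with edgeR and limma-voom holding enough reads to test 5 of the 10. The median change over the 10 genes was 0.40 in mono-culture and -0.16 in co-culture, and over all genes 0.02 and 0. The medians over the 10 include ACSL1 and FADS2, both under the floor in every library.

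SCD in co-culture had the smallest p of the 10 in Caco-2. Its replicates were 45.6 and 65.0 CPM in co-culture control and 30.8 and 27.1 CPM in co-culture FFA, which did not overlap. The log2 change was -0.89 (SE 0.29, 95% interval -1.52 to -0.26), with an unadjusted p of 0.00854 and an adjusted p of 0.862. In mono-culture the replicates did not overlap in the other direction, 41.0 and 41.1 CPM against 44.5 and 46.6 CPM, a change of 0.15 (95% interval -0.48 to 0.77). The interaction of FFA and culture was -1.04 (SE 0.41, unadjusted p = 0.0249, adjusted p = 0.82), so a difference between the cultures was not established over all genes. Of the 10 genes, 3 did not overlap between control and FFA in mono-culture and 3 in co-culture, beside 26.3% and 30.1% of all genes in either direction. The 3 in mono-culture include ACSL1, whose place in that count is likewise no result. Among the 3 in co-culture was ACSL3, with 63.4 and 62.2 CPM in control and 47.2 and 48.0 CPM with FFA (log2 change -0.39, adjusted p = 0.862).

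For the synthesis enzymes in Caco-2 the intervals were wide. ACLY was 16.4 and 17.6 CPM in mono-culture control and 32.1 and 17.7 CPM with FFA (log2 change 0.47, 95% interval -0.59 to 1.52). ACACA, the carboxylase that makes malonyl-CoA, changed by 0.64 (-0.79 to 2.07) in mono-culture and 0.19 (-1.25 to 1.62) in co-culture. ELOVL6 was at 0 reads in both co-culture control libraries, against 4 and 2 reads with FFA. ACSL1, a synthetase known in liver and fat, had 0 reads in both mono-culture control libraries and 2 and 1 reads with FFA, both groups under the floor.

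In HepG2, 0 of 10 genes passed in limma for the FFA effect in mono-culture, in co-culture or averaged, where 0%, 0% and 0.0762% of the 14430 genes tested passed. At an unadjusted p under 0.05 there were 2 genes in mono-culture (FADS1 and FADS2), 1 in co-culture (ACSL3) and 2 for the average (FADS1 and ACSL3), beside 6.26%, 15.9% and 13.8% of all genes. FADS2 had entered the HepG2 fit only through mono-culture control, the group where it was highest, so its place in that count is no result. The median change over the 10 genes, ACSL1 and FADS2 included, was 0.55 in co-culture, where that over all genes was -0.26. In mono-culture it was -0.03, beside 0.06. With quantile normalization the all-gene median in co-culture was -0.04 and with median-ratio rescaling -0.45, so changes in co-culture are to be read against that shift. Control and FFA did not overlap for 5 of 10 genes in mono-culture and 5 in co-culture, beside 32.5% and 42.7% of all genes. The 5 in mono-culture include FADS2, whose place in that count is likewise no result. edgeR and limma-voom tested 4 of the 10 and passed 0, and DESeq2 gave no adjusted p for any of the 10 in these 3 comparisons.

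ACSL3 and FADS1 were the HepG2 genes with the smallest p values. ACSL3 was 76.6 and 67.4 CPM in mono-culture control and 87.2 and 98.2 CPM in mono-culture FFA, and 50.7 and 39.1 CPM in co-culture control against 74.8 and 141 CPM in co-culture FFA. Control and FFA did not overlap in either culture, although the 141 CPM rested on 7 reads (exact counting interval 56.7 to 291 CPM). The averaged log2 change was 0.77 (SE 0.25, 95% interval 0.21 to 1.34, unadjusted p = 0.0130, adjusted p = 0.238). In Caco-2 the averaged change was -0.26 (-0.67 to 0.14), and the difference between the lines was 1.04 (SE 0.32, unadjusted p = 0.00595, adjusted p = 0.211).

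FADS1, the desaturase that completes arachidonic acid, was 6.97 and 5.86 CPM in HepG2 mono-culture control and 18.8 and 25.5 CPM in mono-culture FFA. In co-culture it was 13.9 and 20.1 CPM in control and 20.4 and 60.4 CPM with FFA, the last from 3 reads. Control and FFA did not overlap in either culture. The averaged log2 change was 1.33 (SE 0.44, 95% interval 0.33 to 2.34, unadjusted p = 0.0152, adjusted p = 0.242). FADS1 (chr11:61799627-61829318, minus strand) overlaps FADS2 (chr11:61792980-61867354, plus strand) over 490 exon bases, and whether reads were counted by strand is not given in the sources used here, so reads there could have come from either gene. FADS2 had 7 reads in all 16 libraries against 173 for FADS1, and its HepG2 mono-culture change rested on 1 read in each control library and 0 with FFA.

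The HepG2 values depended on the shallow libraries, in which the sums of the hepatocyte markers (31218 to 46077 CPM, against 23137 to 29721 in the other HepG2 libraries) and of the intestinal markers (184 to 282 CPM, against 77.7 to 152) were also highest. Their part in these results was not tested. Without replicate 1 of HepG2 co-culture FFA, which left the 49634-read library alone in its group and assumed that it varied like the others, ACSL3 (adjusted p = 0.0194), FADS1 (adjusted p = 0.0195) and FASN passed for the averaged FFA effect. In the full fit FASN had a change of 1.28 (95% interval -0.38 to 2.93). SCD was 32.5 and 17.6 CPM in mono-culture control and 21.2 and 21.8 with FFA, with a change of -0.15 (-1.28 to 0.99). In co-culture the SCD change was 0.40 (-0.74 to 1.53) on 3 and 1 reads in the FFA libraries. ACLY had 5 and 1 reads there and ACACA 2 and 0.

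**Figure D3:**
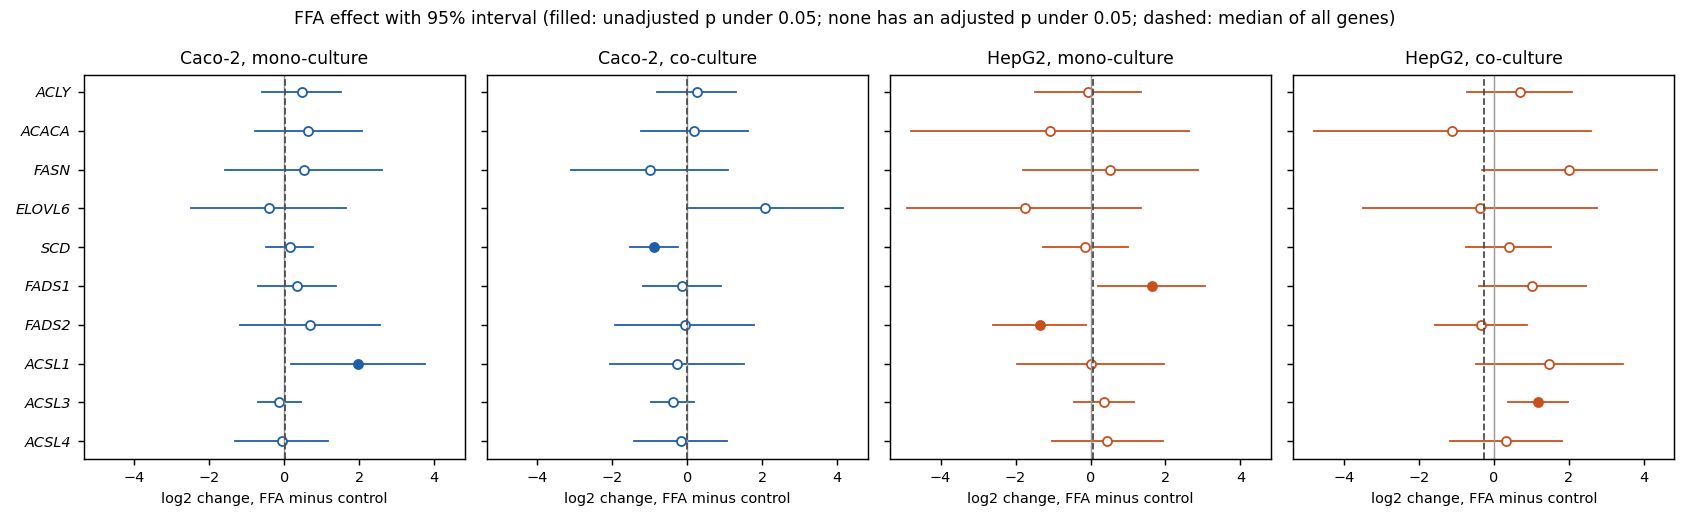
Log2 change with FFA against control for the 10 genes in each line and culture, with the 95% interval of the limma fit. Filled points have an unadjusted p under 0.05, none has an adjusted p under 0.05, and the dashed line is the median of all genes tested. ACSL1 in Caco-2 and FADS2 in HepG2 mono-culture are filled but entered their fits only through the group where they were highest. SCD lies at -0.89 in Caco-2 co-culture, FADS1 at 1.63 in HepG2 mono-culture and ACSL3 at 1.19 in HepG2 co-culture.

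Co-culture was compared with mono-culture in the same way. In Caco-2, 0 of 10 genes passed in limma without FFA, with FFA or averaged over treatment, where 0.0971%, 0.0971% and 0.453% of all genes passed. At an unadjusted p under 0.05 there was 1 gene without FFA (ELOVL6), 1 with FFA (SCD) and 0 for the average, beside 10.3%, 7.78% and 11.8%. ELOVL6 had 1 and 8 reads in mono-culture control and 0 in both co-culture control libraries (limma unadjusted p = 0.0162, adjusted p = 0.396). With the floor of 3 reads set over the co-culture control group its pooled level was 2.12-fold lower there, which is not a lower bound. SCD was 45.6 CPM ± 1.47 in mono-culture FFA and 28.9 ± 2.59 in co-culture FFA (SD, n = 2 each), a log2 change of -0.64 (95% interval -1.27 to -0.01) with an adjusted p of 0.632. Mono-culture and co-culture did not overlap for 5 of 10 genes without FFA and 2 with FFA, beside 31.6% and 34.6% of all genes. The 2 with FFA include ACSL1, which entered the fit only through mono-culture FFA, so its place in that count is no result. The sum of the 15 hepatocyte markers in Caco-2 was 4127 to 4948 CPM in mono-culture and 5805 to 6203 CPM in co-culture, with CPB2 at 0 throughout, and its part in these values was not tested. edgeR and limma-voom passed 0 in these comparisons, as did DESeq2 with FFA and averaged, while it gave no adjusted p for any of the 10 without FFA.

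In HepG2, 0 of 10 genes passed for co-culture without FFA, with FFA or averaged in limma, as did 0%, 0% and 0% of all genes. None of the 10 had an unadjusted p under 0.05 either, beside 2.61%, 14.7% and 7.72% of all genes, and edgeR and limma-voom passed 0. DESeq2 passed 0 for the average, where it gave an adjusted p for 1 of the 10, and gave none for the other comparisons. The cultures did not overlap for 5 of 10 genes without FFA and 1 with FFA, beside 32.9% and 27% of all genes. The 5 without FFA include FADS2, which entered the fit only through mono-culture control, so its place in that count is no result. FADS1 had the smallest p for the average, at 14.3 CPM ± 9.49 in mono-culture and 28.7 ± 21.4 in co-culture (SD, n = 4 each), a log2 change of 0.96 (95% interval -0.04 to 1.96, adjusted p = 0.655). ACSL3 without FFA was 72.0 CPM ± 6.48 in mono-culture and 44.9 ± 8.17 in co-culture (SD, n = 2 each), a change of -0.68 (-1.48 to 0.12). The interaction of FFA and culture passed for 0 of 10 in either line, beside 0% and 0% of all genes, with 1 gene (SCD) at an unadjusted p under 0.05 in Caco-2 and 0 in HepG2, beside 5.02% and 6.94%. edgeR, limma-voom and DESeq2 passed 0 for the interaction. Between the lines 0 of 10 differed in the averaged FFA effect (1, ACSL3, at an unadjusted p under 0.05) and 0 of 10 in the averaged co-culture effect (0), beside 0.0912% and 0.0969% of all genes at the adjusted threshold and 11.4% and 9.72% at the unadjusted one. edgeR and limma-voom also passed 0 there, and DESeq2 passed 0 for FFA and gave no adjusted p for co-culture.

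The neighbours of these genes in the pathway were read from 6 lists holding 101 genes. Within a line 1 gene passed in any comparison. MSMO1, a sterol demethylase of cholesterol synthesis, was 597 CPM ± 23.1 in Caco-2 mono-culture FFA and 175 ± 51.9 in co-culture FFA (SD, n = 2 each), and so fell by 1.80 on the log2 scale (SE 0.19, limma adjusted p = 0.00115). Averaged over treatment it fell by 1.17 (adjusted p = 0.00103). None of the lists had another gene past the threshold within a line. The smallest p values elsewhere belonged to MVK for FFA in Caco-2 (log2 change 1.56, adjusted p = 0.829), DBI for FFA in HepG2 (-0.64, adjusted p = 0.0596) and CBR4 for co-culture in HepG2 (-2.38, adjusted p = 0.489). DBI, the acyl-CoA binding protein, was 633 CPM ± 66.3 in HepG2 control and 409 ± 57.6 with FFA (SD, n = 4 each), and the groups did not overlap.

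Between the lines the largest differences in the lists, picked from 101 listed genes, were beyond those of the 10 genes. Of 9 genes of substrate and NADPH supply, 5 passed (1 higher, 4 lower in HepG2), with a median of -0.34. ME1, the cytosolic malic enzyme that yields NADPH, had 13.3 to 42.0 CPM in Caco-2 (133 reads) and 0 reads in all 8 HepG2 libraries. Its pooled ratio of HepG2 to Caco-2 was 0 (exact 95% counting interval 0 to 0.0278). ACSS2, which makes acetyl-CoA from acetate, had 26.7 to 107 CPM in Caco-2 and 0 to 14.5 CPM in HepG2 (log2 difference -3.34, adjusted p = 1.34e-05).

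Of 14 regulators of lipogenesis tested, 6 passed (3 in each direction), with a median of 0.12. INSIG1, the protein that holds SREBP in the endoplasmic reticulum when sterols are plentiful, had 515 reads in Caco-2 and 2 in HepG2, a pooled ratio of 261 (exact 95% counting interval 71.9 to 2160). INSIG2, its homologue, differed the other way, with 16.4 to 57.8 CPM in Caco-2 and 110 to 201 CPM in HepG2 (log2 difference 2.10, adjusted p = 5.17e-08). SREBF1, which encodes SREBP-1c, had 3 reads in Caco-2 and 2 in HepG2 so no fold is given.

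Among 16 elongation and desaturation partners, 4 passed (2 in each direction), with a median of -0.03. ELOVL2, an elongase of polyunsaturated fatty acids, had 1 read in Caco-2 and 62 in HepG2, a pooled ratio of 61.2 (10.6 to 2455). CYB5A, a cytochrome that passes electrons to SCD, was 115 to 161 CPM in Caco-2 and 363 to 508 CPM in HepG2 (log2 difference 1.62, adjusted p = 3.3e-09). Of 20 other acyl-CoA genes, 5 passed (1 higher, 4 lower), with a median of -0.14. The passing genes were led by the thioesterase ACOT7 (-2.87, adjusted p = 0.000656) and the synthetase ACSF2 (-2.47, adjusted p = 0.00198). Of 12 carboxylase partners and genes of mitochondrial fatty acid synthesis, 3 passed, all higher in HepG2, with a median of 0.03 over the list. The 3 were led by MCAT (2.05, adjusted p = 0.00371) and OXSM (1.29, adjusted p = 0.0202).

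Of 23 genes of cholesterol synthesis and uptake, 12 passed, 2 higher and 10 lower in HepG2, with a median of -0.28. IDI1, the isomerase that makes the prenyl donor of the pathway, differed by -1.84 on the log2 scale (adjusted p = 6.73e-06). SCD lay on the side of these 10, and FASN, ACSL3 and ACSL4 lay on the side of the other 2. Whether these differences share a cause was not tested. The counts of these lists are beside 30.3% of all genes passing, and they were not tested against one another.

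**Figure D4:**
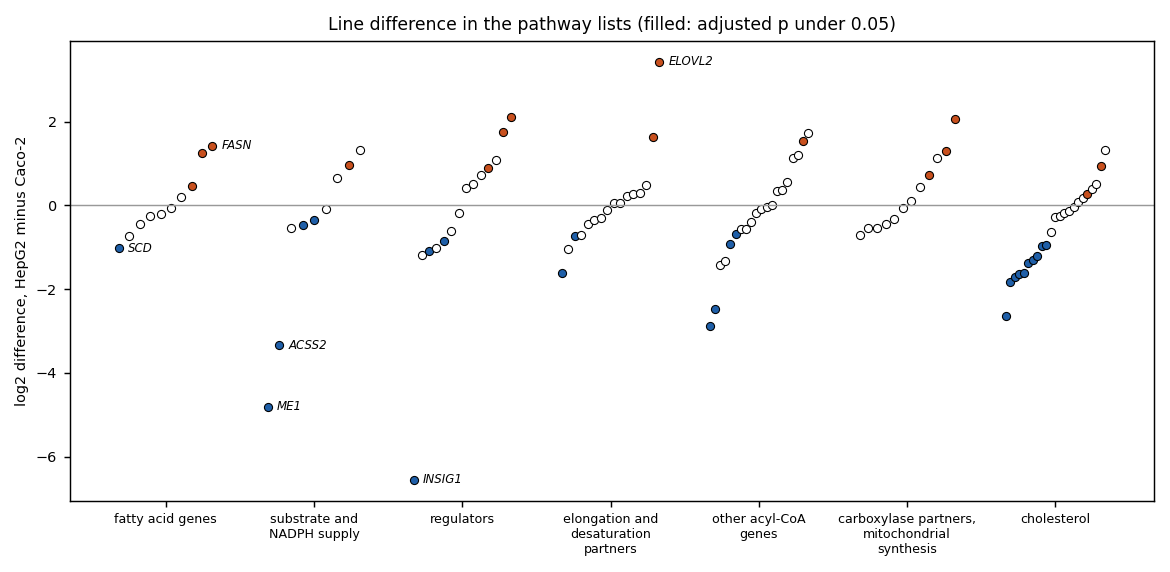
Log2 difference between HepG2 and Caco-2, averaged over the 4 conditions, for each tested gene of the 10 fatty acid genes and of the 6 pathway lists. Filled points have an adjusted p under 0.05 (orange, higher in HepG2; blue, lower), and open points do not. INSIG1 at -6.55, whose HepG2 level rests on 2 reads, and ELOVL2 at 3.43 lie farthest below and above 0.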

How the data were processed

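RNA was amplified with a PCR-cDNA barcoding kit and read on an Oxford Nanopore device. The submitters' processing notes name minimap2 2.22 and GRCh38, and the study's methods describe other mapping tools for mRNA-seq without saying whether they were used for these reads. The deposited values are called TPM, but in each library 99.2% to 100% of them lie within 0.05 reads of whole multiples of 1 step, so the values the authors deposited were treated as CPM and the reads were recovered from that step. Of the 60623 identifiers, 60295 were in GENCODE 44.

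A gene entered a fit if its group mean reached 1 CPM in any group. The scale was log2(CPM + 1), on which the change of a low gene is understated. Using limma 3.58.1 (R 4.3.3) and a prior variance that follows the mean level, 1 mean per group was estimated, over the 8 libraries of a line for effects within it and over all 16 for differences between lines. P values are two-sided and were adjusted by Benjamini-Hochberg over all genes tested, with a threshold of 0.05. All 10 genes passed that filter in both lines, FADS2 and ACSL1 through groups of at most 3 reads. Levels carry exact Poisson intervals, and shares exact Clopper-Pearson intervals. The fits were tested on simulated data. Only genes at levels above those of FASN, ELOVL6, ACACA, FADS2 and ACSL1 were changed there, so that test does not cover genes so low.

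The 10 genes, the pathway and marker lists and the comparisons were chosen with earlier results of these data known. The named genes are all 10 members, the list genes that passed within a line, the list gene with the smallest p where none passed in an averaged contrast, and the 2 largest differences between lines of each list, 1 of which is not reported here. Genes outside this rule (SREBF1, SCDP1) were added after their values were seen. The alternatives were another pseudocount, filter, normalization, prior variance and tool (edgeR 4.0.16, DESeq2 1.42.0 and limma-voom on the recovered reads), replicate number as a block, thinning to 49634 reads, and leaving out each library. Single conditions and the fit without HepG2 co-culture FFA were added after seeing the data. The labels give no run or date, so no batch could be examined.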

Additional observations from a re-analysis of the deposited data

Results flagged for a closer look

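For SCD in Caco-2, every FFA library lay above the controls in mono-culture (log2 value 0.15, adjusted p = 0.991) and below them in co-culture (-0.89, adjusted p = 0.862), and neither passed. The same 4 groups, read as the effect of co-culture, gave 0.40 without FFA and -0.64 with FFA, again without overlap. The interaction of limma, which tests both readings, was -1.04 with an adjusted p of 0.82 and an unadjusted p of 0.0249, a level that 5.02% of all genes reached.

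In co-culture, the SCD values with FFA lay below control in Caco-2 (-0.89) and above it in HepG2 (0.40, adjusted p = 0.721) with no overlap in either line. Those of ACSL3 were placed likewise, with -0.39 in Caco-2 (adjusted p = 0.862) and 1.19 in HepG2 (adjusted p = 0.216). None of these passed. The HepG2 values rest on 3 and 1 reads of SCD and 11 and 7 reads of ACSL3 in the FFA libraries. The difference between the lines in co-culture alone was not tested. Averaged over culture it was 0.50 for SCD (adjusted p = 0.694) and 1.04 for ACSL3 (adjusted p = 0.211).

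Without FFA, the ACSL3 libraries of co-culture lay above those of mono-culture in Caco-2 (0.17, adjusted p = 0.855) and below them in HepG2 (-0.68, adjusted p = 1), with no overlap in either line, and neither passed. The difference without FFA alone was not tested, and averaged over treatment it was -0.30 (adjusted p = 0.731). With 2 replicates a group, 26.3% to 42.7% of all genes showed no overlap in a comparison of 2 groups in the same line.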

How the results depend on the processing

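Of 385 counts of genes past the threshold under an alternative, 355 stayed within 1.5 times the main count, and 7 more had no value because DESeq2 gave no adjusted p for any of the 10. The main count was 0 in every comparison but the averaged one between the lines. Most of the 355 were therefore counts of 0 that stayed 0. Between the lines the main count of 4 became 2 with median-ratio rescaling (SCD and ACSL4), 2 with DESeq2 (the same pair), 1 after thinning (SCD), 2 without both HepG2 co-culture FFA libraries (SCD and ACSL4), and 0, 1 and 2 in mono-culture FFA, co-culture control and co-culture FFA alone. The 2 in co-culture FFA alone were neither SCD nor ACSL4, and their HepG2 levels came from the libraries of 147096 and 49634 reads. Leaving out 1 library at a time gave 2 to 4. The call for SCD held in all of these except mono-culture FFA alone and co-culture FFA alone, and ACSL4 was lost in thinning, in the 3 single conditions and without Caco-2 co-culture FFA replicate 2. FASN (adjusted p 0.00333 to 0.966) and ACSL3 (0.00236 to 0.662) passed in 8 of 29 and 10 of 31 alternatives. ACSL3 reversed in co-culture control alone (-0.49), and its FFA difference between the lines reversed after thinning (-0.61). In mono-culture control the count of 0 became 1 (SCD) with edgeR and 1 with limma-voom.

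Within the lines, thinning passed SCD in Caco-2 for FFA in co-culture (1) and for co-culture with FFA (1). Leaving out 1 library gave 0 to 3 genes for FFA in HepG2 co-culture, 0 to 3 for the averaged FFA effect, 0 to 1 for co-culture with FFA and averaged, and 0 to 1 for the difference between the lines in the FFA effect. Without HepG2 co-culture FFA replicate 1 these were ACSL3, FADS1 and FASN, and without replicate 2 ACSL1, on 1 read. The cause of these changes was not tested, apart from the fewer reads that thinning leaves. ACSL1 had entered the HepG2 fit only through co-culture FFA, the group where it was highest, so its place in these counts is no result.

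The replicate numbers were not taken as a pairing, since not every pair of groups had correlated deviations. Over all genes tested the correlations ran from -0.0169 to 0.0318. Over genes above 100 CPM they ran from -0.0172 to 0.291 in Caco-2, with 4 of 6 pairs over 0.1, and from -0.103 to 0.121 in HepG2, with 3 of 6. With replicate number as a block the count between the lines was 4 and the counts within the lines 0, and no call of the 10 genes changed, although the block raised the calls over all genes in Caco-2, from 70 to 210 for averaged co-culture and from 1 to 12 for FFA in mono-culture. The floor of 3 reads stood for 1.81 to 60.4 CPM, depending on the library.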

Other observations

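In HepG2, 9 of 23 genes of cholesterol synthesis and uptake had an unadjusted p under 0.05 for the averaged FFA effect, beside 13.8% of all genes in either direction, and all 9 were higher (HMGCS1, MVD, IDI1, FDFT1, CYP51A1, MSMO1, SC5D, DHCR7 and ACAT2), a direction seen before it was counted and shared by 6.76% of all genes. Of the 9, 0 passed in limma after adjustment. FDFT1, squalene synthase, was 272 CPM ± 46.4 in control and 445 ± 70.3 with FFA (SD, n = 4 each), a log2 change of 0.70 (SE 0.14, adjusted p = 0.134), and SC5D was 36.2 CPM ± 8.36 and 79.7 ± 16.1, a change of 1.13 (adjusted p = 0.151). In mono-culture alone, without the shallow HepG2 co-culture FFA libraries, 2 of the 23 were under 0.05, both higher, beside 6.26% of all genes. The median change there was 0.62 over the list beside 0.06 over all genes. In Caco-2, 5 of the 23 were under 0.05 in mono-culture, all higher, beside 5.8% of all genes. In Caco-2 co-culture 5 were, all lower, beside 4.88%. The 9 HepG2 genes were named after their values were seen.

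Of 8 genes of substrate and NADPH supply tested in HepG2, 4 (SLC25A1, IDH1, PGD and TKT) had an unadjusted p under 0.05 for the averaged FFA effect, beside 13.8% of all genes in either direction. All 4 were higher, a direction shared by 6.76% of all genes, and 0 passed in limma after adjustment. In mono-culture alone, without the shallow libraries, 1 (IDH1) was under 0.05, beside 6.26% of all genes. The highest SLC25A1 value, 60.4 CPM, was at the floor of the shallowest library. PGD in co-culture FFA was 165 CPM ± 108 (SD, n = 2). TKT, the transketolase of the pentose phosphate pathway, was 185 CPM ± 22.2 in control and 261 ± 33.2 with FFA (SD, n = 4 each), without overlap (log2 change 0.49, adjusted p = 0.224).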
